A study of Brassica oleracea var. italica with 5 samples.

Results

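Cuticular wax is made, exported and carried by a small group of enzymes and transporters, and 10 of their genes were followed here through early broccoli growth. They are the ECERIFERUM genes CER1 to CER5, the ketoacyl-CoA synthases KCS1, KCS6, KCS10 and KCS19, and the lipid transfer protein LTP1. Each was found as the unigene, an assembled transcript sequence, whose best match is the *Arabidopsis* locus of that name, so 10 unigenes were taken of 19441 in all, 18224 of which have an *Arabidopsis* match. The authors kept top-hit transcripts as unigenes, so other transcripts or gene copies matching the same locus have no value of their own. The 10 were chosen by name when results of these same libraries were known, among them the large change of KCS19 between the leaf types, so all their values are given as a description and no test is run on them.

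The libraries came from the broccoli cultivar Qingxiu (*Brassica oleracea* var. *italica*), with no treatment set against a control. The 5 tissues were seeds of day 0, cotyledons taken at 3, 7 and 11 days after germination, and true leaves, called euphyllas, taken at 11 days. The seeds were not dry, since they had been sterilised with NaClO and left overnight on moist filter paper, and they are labelled as germinated. Each tissue was sequenced as 1 library that pooled 3 biological replicates, so no spread between plants is known, and tissue, age, time of harvest and library cannot be told apart.

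The surface of a shoot is sealed by the cuticle, a polyester called cutin filled and covered with wax. Wax is made in epidermal cells, where an elongase complex in the endoplasmic reticulum lengthens fatty acids to very long chains, with a ketoacyl-CoA synthase taking the first step of each cycle. One branch turns the chains into aldehydes, alkanes and ketones, another into primary alcohols and wax esters, and transporters of the ABC type and lipid transfer proteins bring the products to the surface. The powdery bloom of *Brassica* leaves is such wax. The functions named below are those known in *Arabidopsis*.

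The value used is the normalized read count, the number of reads of a unigene divided by the size factor of its library. Values along the cotyledon series are given for days 3, 7 and 11 in this order. The libraries held between 6802615 and 10312625 mapped reads over 17870 to 18319 unigenes with reads, and 1 read was worth between 0.708 and 1.16 normalized reads. Ratios between libraries carry an exact 95% interval of the counts, which covers counting error only and treats each read as a separate fragment. Every library had more mapped reads than trimmed read pairs, so some fragments were counted more than once and the true counting error is larger. Counting error below means this interval, and a given number of reads may stand for fewer fragments. A unigene was called higher or lower where the ratio was at least 2, the interval left out 1, and both libraries together held at least 20 reads. The labels were checked with marker genes. All 4 seed reserve markers (OLEO1, OLEO2, CRA1 and EM6) were highest in seeds and at 0 reads in euphyllas, and the young leaf markers AS1, FIL and ANT were called higher in euphyllas than in 11 day cotyledons, while the meristem markers STM and KNAT1 had 0 reads in both.

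Many of the wax genes rose in cotyledons up to day 7, CER1 to CER4, KCS19 and LTP1 fell to day 11, and these 6 were high in the euphyllas of the same age. From seeds to 3 day cotyledons, 4 of the 10 were called higher (CER1, CER4, KCS19 and LTP1) and 1 lower (KCS6), where 22.1% of all 16455 unigenes with enough reads were called higher and 22.5% lower. From 3 to 7 days, 6 were called higher (CER1, CER4, CER5, KCS1, KCS10 and KCS19) and 0 lower, beside 23.3% and 15.4% of 16307 unigenes. From 7 to 11 days, 1 was called higher (KCS6) and 6 lower (CER1 to CER4, KCS19 and LTP1), beside 19.4% and 18.4% of 16396 unigenes. From 11 day cotyledons to euphyllas, 6 were called higher (CER1 to CER4, KCS19 and LTP1) and 1 lower (KCS6), beside 21.0% and 26.3% of 16291 unigenes. The 6 that fell between 7 and 11 days were the same 6 that were higher in euphyllas, but both comparisons share the 11 day cotyledon library, so they are not independent of each other.

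The scaling of the libraries bears on these counts. Scaling by total mapped reads in place of the size factors moves every log2 ratio by -0.24, -0.44, -0.03 and 0.49 in the 4 comparisons in turn. From seeds to 3 days CER1 is then not called, with a log2 ratio of 0.95. In the step from 3 to 7 days only CER4 and KCS1 are then called higher, and LTP1 is called lower. No called gene turned its direction, but KCS1 from seeds to 3 days, CER2 from 3 to 7 days, and KCS10 from 11 day cotyledons to euphyllas, none of them called, changed sign. Ratios near 1 described below as within counting error hold for the size factors, and with total mapped reads CER5, for example, has a log2 ratio of 0.54 in place of 0.05 from 11 day cotyledons to euphyllas.

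**Figure D1:**
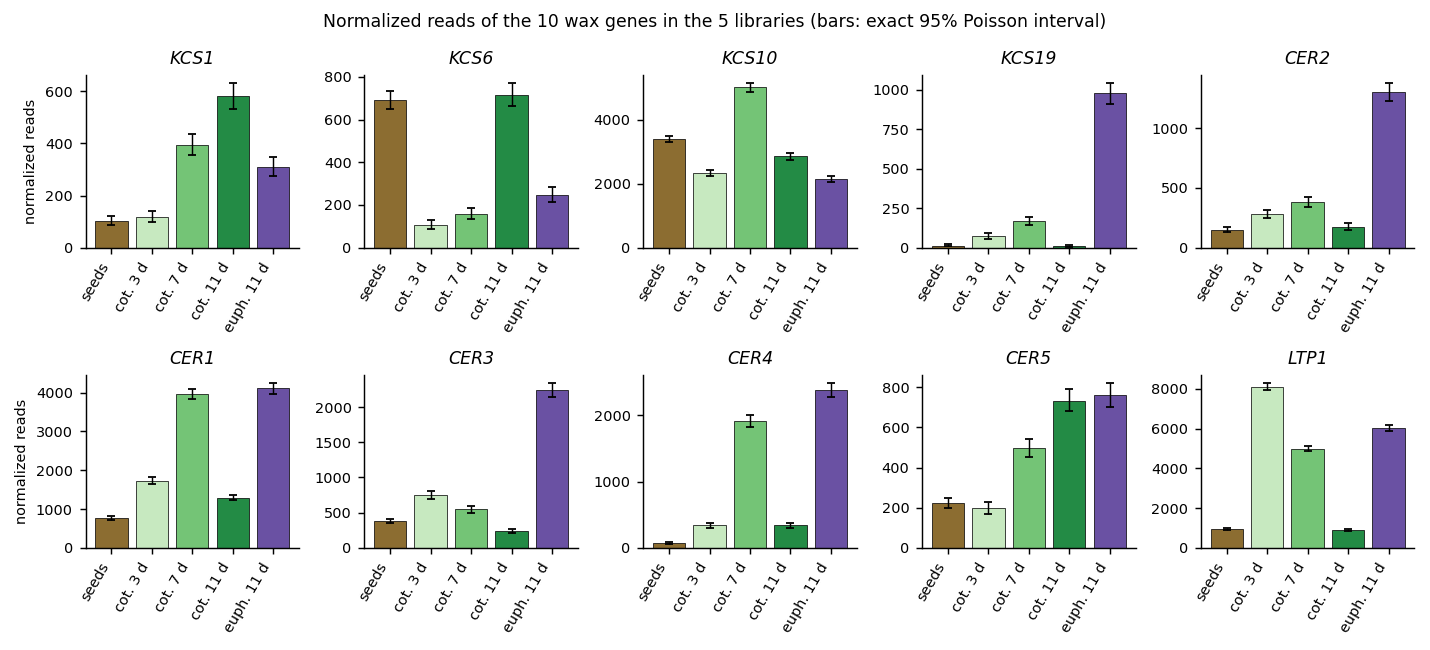
Normalized reads (vertical axes, linear and starting at 0, a scale of its own for each gene) of the 10 wax genes in the 5 libraries, that is seeds, cotyledons (cot.) by age and euphyllas (euph.), with bars for 1 library each and the exact 95% Poisson interval of the reads. KCS19 goes from 7.51 in 11 day cotyledons to 975.3 in euphyllas, whereas KCS6 is high in seeds and 11 day cotyledons.

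Of the elongating enzymes, KCS10 was the most abundant in every library. KCS10 (AT2G26250, *Arabidopsis* chromosome 2, 11170418 to 11173142), known as FIDDLEHEAD, is needed to keep neighbouring organs from fusing. Its normalized reads were 3402 in seeds, 2337, 5020 and 2866 along the cotyledon series, and 2152 in euphyllas. It was highest at 7 days and lowest in euphyllas, with a range of 2.33-fold over the 5 libraries, the narrowest of the 10 genes. It rose 2.15-fold (interval 2.04 to 2.26) from 3 to 7 days and was 2.33-fold (2.21 to 2.46) lower in euphyllas than in 7 day cotyledons, while the other steps were not called. With total mapped reads it was highest in seeds instead.

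KCS6 (AT1G68530, chromosome 1, 25712588 to 25714807), also called CUT1 or CER6, is the main condensing enzyme of stem wax. It had 691.3 normalized reads in seeds, 107.8, 156.5 and 716.2 along the cotyledon series, and 247.3 in euphyllas. Seeds and 11 day cotyledons were high and did not differ beyond counting error, with a ratio of 1.04 (0.938 to 1.14), and the other libraries were low. KCS6 fell 6.41-fold (5.24 to 7.91) from seeds to 3 days and rose 4.58-fold (3.83 to 5.503) from 7 to 11 days. It was 2.90-fold (2.48 to 3.39) lower in euphyllas than in 11 day cotyledons, the only one of the 10 called in this direction.

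KCS1 (AT1G01120, chromosome 1, 57269 to 59167) takes part in wax synthesis of stems and leaves. The gene had 102.6 normalized reads in seeds, 117.0, 393.9 and 582.2 along the cotyledon series, and 309.7 in euphyllas. It was low in seeds and 3 day cotyledons, which did not differ beyond counting error (1.14, 0.885 to 1.47), and highest in 11 day cotyledons. The step from 3 to 7 days was a rise of 3.37-fold (2.73 to 4.19). Euphyllas were 1.88-fold (1.62 to 2.18) below 11 day cotyledons, which is under the limit for a call.

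KCS19 (AT5G04530, chromosome 5, 1291822 to 1293688) belongs to the same family by sequence. It held 18 reads in seeds, 71, 160 and 7 reads along the cotyledon series, and 844 reads in euphyllas. As normalized reads these are 12.7, 72.2, 168.1, 7.51 and 975.3. The euphyllas stood far above the other libraries, and seeds and 11 day cotyledons were lowest and not apart beyond counting error (1.70, 0.676 to 4.81). KCS19 rose 5.67-fold (3.34 to 10.1) from seeds to 3 days and 2.33-fold (1.75 to 3.12) to 7 days, then fell 22.4-fold (10.6 to 56.6) to 11 days. In euphyllas it was 129.9-fold (62.8 to 324) higher than in cotyledons of the same age, which rests on the 7 reads there, and 5.80-fold (4.90 to 6.92) higher than in 7 day cotyledons.

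Among all 16 ketoacyl-CoA synthases with a unigene, compared per kilobase of unigene, KCS10 made up 44.5% of the summed normalized reads in seeds, 42.4%, 42.3% and 28.4% along the cotyledon series, and 20.1% in euphyllas. KCS19 made up 0.216% in seeds, 1.70%, 1.83% and 0.0964% in the cotyledons, and 11.8% in euphyllas, where it ranked 4 of 16 after ranks of 13, 12, 9 and 14. The sum itself was 2756 in seeds, 1990, 4282 and 3638 in the cotyledons, and 3865 in euphyllas. The family shares similar sequence, so reads of one member may have been placed on another, and the split between members is uncertain.

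**Figure D2:**
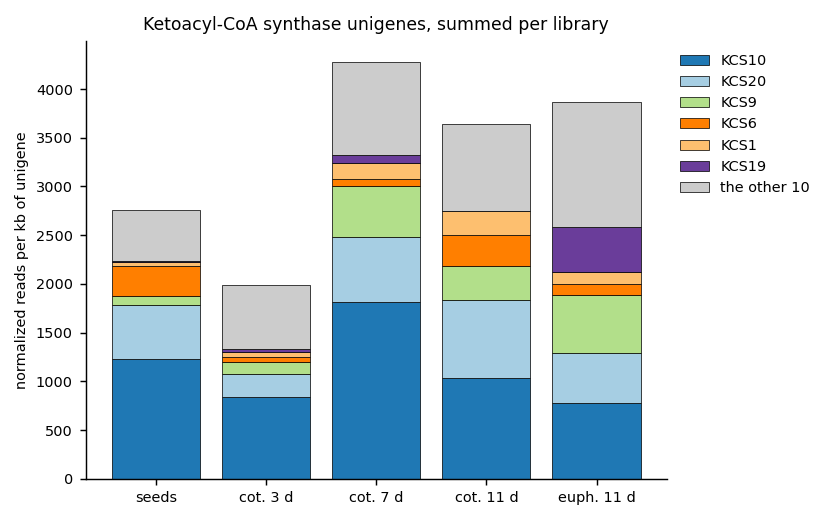
Normalized reads per kilobase of unigene (vertical axis) summed over the 16 ketoacyl-CoA synthase unigenes in the 5 libraries, with the 4 wax members, KCS20 and KCS9 in colour and the other 10 in grey. The KCS10 segment narrows from 44.5% of the seed bar to 20.1% of the euphylla bar, and KCS19 is visible mainly in euphyllas.

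CER2 (AT4G24510, chromosome 4, 12660749 to 12662656), a protein of the BAHD acyltransferase family, works with KCS6 to make the longest chains. Its normalized reads were 147.9 in seeds, 282.7, 379.2 and 173.7 along the cotyledon series, and 1303 in euphyllas. Euphyllas were above every other library, and 11 day cotyledons and seeds were lowest and did not differ beyond counting error (1.17, 0.951 to 1.45). CER2 fell 2.18-fold (1.81 to 2.64) from 7 to 11 days and was 7.51-fold (6.36 to 8.90) higher in euphyllas than in cotyledons of that age. It thus did not follow KCS6, which went the opposite way in both steps. The unigene of CER2 is 4456 bp long against 1907 bp for the matched gene, so it may hold other sequence as well.

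CER1 and CER3 act together in making alkanes, CER1 as the enzyme that releases the alkane. CER1 (AT1G02205, chromosome 1, 418748 to 422438) had 763.5 normalized reads in seeds, 1732, 3973 and 1297 along the cotyledon series, and 4108 in euphyllas. The 7 day cotyledons and the euphyllas were both high and did not differ beyond counting error (1.03, 0.988 to 1.08). CER1 rose 2.27-fold (2.10 to 2.45) and 2.29-fold (2.17 to 2.43) in the first and second steps, fell 3.06-fold (2.87 to 3.27) to 11 days, and was 3.17-fold (2.97 to 3.38) higher in euphyllas than in 11 day cotyledons.

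CER3 (AT5G57800, chromosome 5, 23420209 to 23424052), listed in the files as FLP1, had 379.3 normalized reads in seeds, 752.6, 547.3 and 240.2 along the cotyledon series, and 2238 in euphyllas. Unlike CER1 it stood alone in euphyllas, and its highest cotyledon value came at 3 days. It was 9.32-fold (8.11 to 10.8) higher in euphyllas than in 11 day and 4.09-fold (3.71 to 4.51) higher than in 7 day cotyledons. The fall from 7 to 11 days was 2.28-fold (1.95 to 2.68). From seeds to 3 days the ratio was 1.98, just under the limit, as was the 1.91 of CER2, whereas CER1 with 2.27 was the member called with the smallest ratio there.

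The proportion of the partners differed between the libraries. Per kilobase, CER1 and CER3 had 236.3 and 122.9 normalized reads in seeds, 536.1 and 243.8 in 3 day cotyledons, 1230 and 177.3 in 7 day cotyledons, 401.5 and 77.8 in 11 day cotyledons, and 1271 and 725.1 in euphyllas.

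CER4 (AT4G33790, chromosome 4, 16204157 to 16207947), a fatty acyl-CoA reductase, makes the primary alcohols. It had 77.8 normalized reads in seeds, 340.7, 1918 and 339.9 along the cotyledon series, and 2385 in euphyllas. The 3 and 11 day cotyledons were alike within counting error (1.002, 0.857 to 1.17), with the 7 day cotyledons and euphyllas far above them. CER4 rose 4.38-fold (3.52 to 5.48) and 5.63-fold (5.01 to 6.34), fell 5.64-fold (5.01 to 6.38), and was 7.02-fold (6.23 to 7.92) higher in euphyllas than in 11 day cotyledons. Over the 5 libraries its range was 30.6-fold, second among the 10 to the 129.9-fold of KCS19.

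CER5 (AT1G51500, chromosome 1, 19097797 to 19101080), also known as ABCG12, is an ABC transporter that exports wax through the plasma membrane of epidermal cells. It had 222.9 normalized reads in seeds, 196.3, 496.8 and 733.4 along the cotyledon series, and 760.3 in euphyllas. It was about level in both tissues of 11 days (1.04, 0.930 to 1.16) and low in seeds and 3 day cotyledons, which did not differ beyond counting error either (1.14, 0.946 to 1.37). Its one called step was the rise of 2.53-fold (2.14 to 3.01) from 3 to 7 days. The exporter thus did not share the fall of CER1 to CER4 between 7 and 11 days, where its own value was 1.48-fold (1.31 to 1.66) higher at 11 days.

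LTP1 (AT2G38540, chromosome 2, 16130350 to 16131174) encodes a small secreted protein of the cell wall that binds lipids, and per kilobase was the most abundant of the 10 in 3 and 7 day cotyledons and in euphyllas, but below KCS10 in seeds and 11 day cotyledons. Its normalized reads were 925.5 in seeds, 8111, 4991 and 904.9 along the cotyledon series, and 6031 in euphyllas. It was the only member highest at 3 days, and seeds and 11 day cotyledons were lowest and did not differ beyond counting error (1.02, 0.937 to 1.12). LTP1 rose 8.76-fold (8.27 to 9.30) from seeds to 3 days, fell 5.52-fold (5.13 to 5.94) from 7 to 11 days, and was 6.67-fold (6.20 to 7.18) higher in euphyllas. The step from 3 to 7 days was 1.63-fold (1.57 to 1.69) lower, not called except with total mapped reads. Its unigene has 1256 bp against 824 bp of the gene, and lipid transfer proteins are similar in sequence, so part of these reads may come from relatives.

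**Figure D3:**
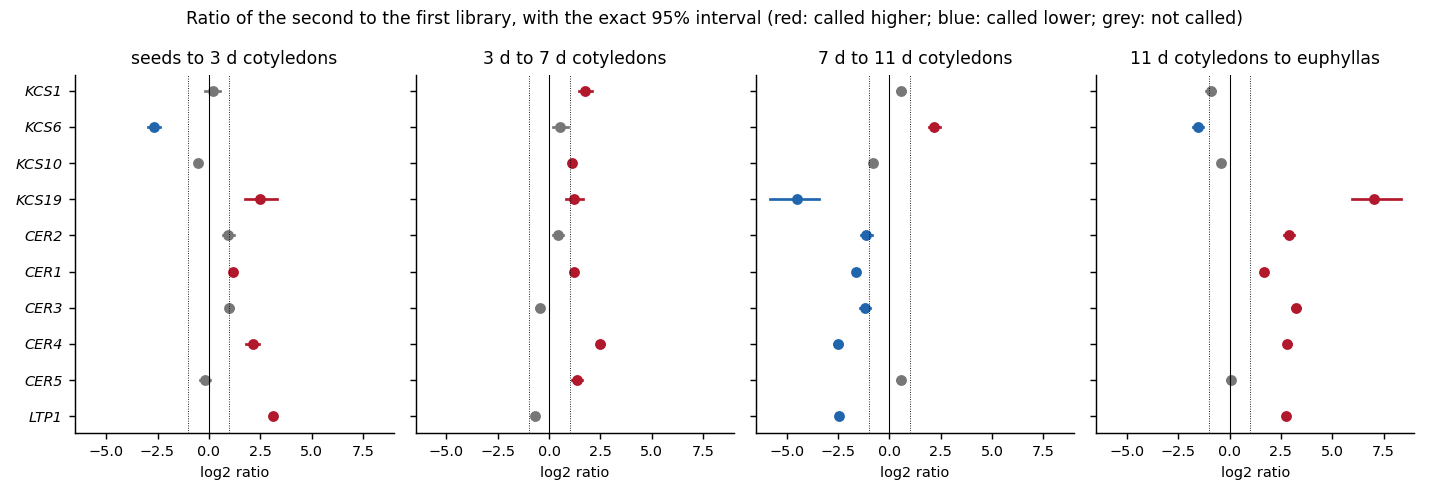
The log2 ratio of the second to the first library (horizontal axis) of the 10 wax genes in the 4 main comparisons, with the exact 95% interval of the counts and dotted lines at 2-fold. In the panel of 7 to 11 day cotyledons 6 genes are called lower (blue) and in that of 11 day cotyledons to euphyllas 6 are called higher (red), where KCS19 has the widest interval.

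The order of the levels per kilobase changed between libraries. Averaged over them, the levels ran from LTP1 with 3338 and KCS10 with 1138 normalized reads through CER1 (735.0), CER4 (537.6), CER3 (269.4), KCS6 (171.7), CER5 (162.7) and KCS1 (126.1) to KCS19 (115.5) and CER2 (102.6). KCS19 alone ranged from 3.51 in 11 day cotyledons to 455.7 in euphyllas, and the value of CER2 is divided by a unigene 2.34 times as long as the gene. By library, 6 members were highest in euphyllas (CER1 to CER5 and KCS19), 2 in 11 day cotyledons (KCS1 and KCS6), 1 in 7 day cotyledons (KCS10) and 1 in 3 day cotyledons (LTP1). With total mapped reads, KCS6 and KCS10 were highest in seeds. The median log2 ratio of the 10 was 0.96, 1.15, -1.15 and 2.20 in the 4 comparisons, where the median of all unigenes was -0.10, 0.04, -0.01 and -0.10.

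The euphyllas were also set against the younger cotyledons. From 7 day cotyledons to euphyllas 3 members were called higher (CER2, CER3 and KCS19) and 1 lower (KCS10), beside 11.6% and 17.2% of 16175 unigenes, with a median log2 ratio of 0.46 for the 10 and -0.01 for all unigenes. From 3 day cotyledons to euphyllas 8 were called higher and 0 lower, beside 14.9% and 10.2% of 15864 unigenes, and the exceptions were KCS10 and LTP1, with values 1.09-fold and 1.35-fold lower in euphyllas.

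Markers of the epidermis, the cell layer that makes wax, moved with many of these genes in the comparisons that share the 11 day cotyledon library. The 5 markers ATML1, PDF2, PDF1, HDG1 and ACR4, which include the regulators that define epidermal identity, had reads in every library, and their normalized reads summed to 1080 in seeds, 1706, 1711 and 572.5 along the cotyledon series, and 2976 in euphyllas. All 5 were called higher in euphyllas than in 11 day cotyledons, with PDF1, an epidermal cell wall protein, at 25.7 and 1384 normalized reads (53.8-fold, 36.0 to 84.3) and the others between 2.12-fold and 4.45-fold. From 7 to 11 days 3 of the 5 were called lower, namely ATML1 (3.53-fold), PDF1 (27.4-fold) and ACR4 (2.05-fold), and 0 higher. Of all unigenes, 21.0% were called higher to euphyllas and 18.4% lower from 7 to 11 days. From 3 to 7 days, where 6 wax genes were called higher, 0 of the 5 markers were called in either direction, beside 23.3% and 15.4% of all unigenes called higher and lower. With total mapped reads only 2 wax genes were called higher in this step. From seeds to 3 days 1 of the 5 was called higher (ATML1) and 0 lower, beside 22.1% and 22.5% of all unigenes. In whole organs fewer epidermal cells and less RNA per epidermal cell cannot be told apart, and the part of these markers in the wax gene values was not tested.

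Divided by the summed epidermis markers, the euphyllas stood against 11 day cotyledons at 25 for KCS19, 1.79 for CER3, 1.44 for CER2, 1.35 for CER4 and 1.28 for LTP1. The same quotient was below 1 for the other members, with 0.609 for CER1, 0.200 for CER5, 0.145 for KCS10, 0.102 for KCS1 and 0.0664 for KCS6. These quotients depend on PDF1, without which the sum is 2.91-fold instead of 5.20-fold higher in euphyllas. A sum without PDF1, chosen after the data were seen, gives 44.7 for KCS19, between 2.29 and 3.20 for CER2, CER3, CER4 and LTP1, 1.09 for CER1, and between 0.119 and 0.356 for KCS6, KCS1, KCS10 and CER5, so that CER1 passes to the other side of 1. KCS19 had the highest and KCS6 the lowest quotient with either sum.

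The wider cuticle pathway was described with 72 further genes in 8 lists, 58 of which had a unigene. From 11 day cotyledons to euphyllas 22 of 54 with enough reads were called higher and 8 lower, and from 7 to 11 days 7 were called higher and 22 lower of 54. The earlier steps had 16 higher and 13 lower of 51 from seeds to 3 days, and 19 higher and 6 lower of 53 from 3 to 7 days. Of all unigenes, 21.0% and 26.3% were called higher and lower to euphyllas, 19.4% and 18.4% from 7 to 11 days, 22.1% and 22.5% from seeds to 3 days, and 23.3% and 15.4% from 3 to 7 days, and the counts from seeds to 3 days lie near these shares. The medians of their log2 ratios were 0.42, 0.54, -0.57 and 0.48 in the order of the comparisons.

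Of the other ketoacyl-CoA synthases, 8 of 12 were called higher and 2 lower from 3 to 7 days (23.3% and 15.4% of all unigenes), the former with KCS9 (4.29-fold, 3.78 to 4.89), KCS2 (3.14-fold, 2.68 to 3.69) and KCS20 (2.84-fold, 2.56 to 3.15). In euphyllas 4 were called higher and 2 lower than in 11 day cotyledons, beside 21.0% and 26.3% of all unigenes. The median log2 ratio of the 12 was 0.0006 in this comparison, although genes of the list moved in both directions. Scaling by total mapped reads moves every log2 ratio here by 0.49. KCS14 went from 44.0 to 630.9 normalized reads (14.4-fold, 10.4 to 20.2) and KCS13 from 31.1 to 288.9 (9.29-fold, 6.31 to 14.2), while KCS12 was 2.17-fold (1.64 to 2.89) lower. KCS8 had 0 reads in 11 day cotyledons and 83 in euphyllas, which is at least 29.8-fold higher.

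The partners of the synthases in the elongase are the reductase KCR1, the dehydratase PAS2 and the enoyl reductase CER10. All 3 were called higher in euphyllas than in 11 day cotyledons, as the only ones of 8 genes of elongation and acyl supply with enough reads, at 2.83-fold (2.38 to 3.37), 3.94-fold (3.09 to 5.08) and 2.67-fold (2.31 to 3.09), and from 7 to 11 days KCR1 had fallen 2.66-fold (2.24 to 3.16) and PAS2 2.46-fold (1.90 to 3.21), while CER10 was 1.76-fold (1.51 to 2.05) lower and not called. ACC1, the carboxylase that supplies malonyl-CoA, fell 2.42-fold (2.13 to 2.75) in that step. Its reads in euphyllas, 1.75-fold (1.53 to 2.01) above 11 day cotyledons, were not called. Of all unigenes, 21.0% were called higher from 11 day cotyledons to euphyllas and 18.4% lower from 7 to 11 days. CER26, a relative of CER2, had 9.91 normalized reads in seeds and 134.3, 279.4, 229.4 and 123.6 in the later libraries, so it was highest at 7 days and not in euphyllas.

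Among the other enzymes of wax products, MAH1 and WSD1 peaked at different cotyledon ages. MAH1, the cytochrome P450 that turns alkanes into secondary alcohols and ketones, had 68.6 normalized reads in seeds, 12.2, 95.6 and 874.9 along the cotyledon series, and 602.0 in euphyllas. It rose 9.15-fold (7.36 to 11.5) from 7 to 11 days, the step in which CER1 and CER3 fell. CER1-LIKE1, a relative of CER1, did the same with 8.34-fold (6.78 to 10.3) and was 4.27-fold (3.63 to 5.04) lower in euphyllas. Its unigene is 1.93 times as long as the gene, and reads may be shared with CER1. WSD1, the wax ester synthase that uses the alcohols of CER4, had 19.8, 68.1, 959.0, 544.7 and 1174 normalized reads from seeds to euphyllas and rose 14.1-fold (11.0 to 18.3) from 3 to 7 days. Like CER4 it was highest in euphyllas, next highest in 7 day cotyledons and lower at 11 days.

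Among the exporters, 2 of 5 were called higher in euphyllas than in 11 day cotyledons and 0 lower. Of all unigenes, 21.0% and 26.3% were called higher and lower in this comparison. ABCG11, the partner of CER5 in *Arabidopsis*, stayed between 279.4 and 420.1 normalized reads and was called in none of the 4 steps. LTPG2, a lipid transfer protein anchored to the membrane, fell 4.13-fold (3.62 to 4.72) from 7 to 11 days and was 2.09-fold (1.81 to 2.42) higher in euphyllas, and LTPG1, of the same kind, rose 2.12-fold (1.74 to 2.60) from 7 to 11 days. ABCG13 had 0 reads in 11 day cotyledons and 34 in euphyllas, at least 12.2-fold higher.

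The other lipid transfer proteins moved as LTP1 did from seeds to 3 days, with 5 of 5 called higher, from 7 to 11 days, with 5 of 6 lower, and to euphyllas, with 5 of 6 higher, beside 22.1%, 18.4% and 21.0% of all unigenes. LTP2, the neighbour of LTP1 on the *Arabidopsis* chromosome, had 34.7, 792.3, 657.5, 57.9 and 801.9 normalized reads from seeds to euphyllas and was 13.9-fold (10.5 to 18.6) higher in euphyllas than in 11 day cotyledons. LTP4 had 1 read in seeds and 328 at 3 days, a ratio of 471.5 with an interval from 84.0 to 18680, and was 57.0-fold (38.5 to 88.5) higher in euphyllas. As with LTP1, reads of these small related genes may be split between them.

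The regulators were split between euphyllas and 11 day cotyledons, with 3 of 7 called higher in euphyllas and 3 lower, beside 21.0% and 26.3% of all unigenes. MYB16, an activator of cuticle genes in epidermal cells, had 10.6 normalized reads in seeds, 240.0, 215.3 and 11.8 along the cotyledon series, and 455.3 in euphyllas, so it fell 18.3-fold (9.99 to 37.2) and was then 38.6-fold (21.3 to 77.97) higher in euphyllas. MYB96, the activator of wax synthesis under drought, had 87.7, 18.3, 140.8, 335.6 and 31.2, and was 10.8-fold (7.25 to 16.6) lower in euphyllas than in 11 day cotyledons. CER9, a ubiquitin ligase whose loss changes cuticle lipids, had 2315, 630.6, 995.8, 2863 and 907.1, with a fall of 3.67-fold (3.37 to 4.01) from seeds to 3 days and a rise of 2.88-fold (2.67 to 3.10) from 7 to 11 days. Like KCS6, CER9 and MYB96 were highest in 11 day cotyledons and lower in euphyllas, although with total mapped reads KCS6 and CER9 were highest in seeds.

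In cutin synthesis, 1 of 11 was called higher and 6 lower from 7 to 11 days, beside 19.4% and 18.4% of all unigenes. In euphyllas 3 of 10 were called higher and 2 lower than in 11 day cotyledons, near the 21.0% and 26.3% of all unigenes. HTH, an oxidoreductase of dicarboxylic acid formation, fell 5.48-fold (4.03 to 7.59) and was then 15.1-fold (11.3 to 20.6) higher in euphyllas. CYP86A4, a fatty acid hydroxylase, went the other way with a rise of 3.61-fold (3.24 to 4.04) and a value 5.07-fold (4.45 to 5.80) lower in euphyllas. GPAT4, an acyltransferase, had 1219, 5152, 4363, 3623 and 3945 normalized reads, and rose 4.23-fold (4.0 to 4.47) from seeds to 3 days, after which its steps were not called. Of 7 suberin genes 3 had a unigene, and from seeds to 3 days 2 were called higher and 1 lower, beside 22.1% and 22.5% of all unigenes. FAR1, a reductase that makes alcohols of root and seed coat suberin, was highest in seeds (305.0) and fell 4.28-fold (3.32 to 5.597) to 3 days. In the same step FAR4 went from 0 to 218 reads, at least 104.5-fold higher, and ASFT from 2 to 58 reads (41.7-fold, 11.0 to 352.4).

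**Figure D4:**
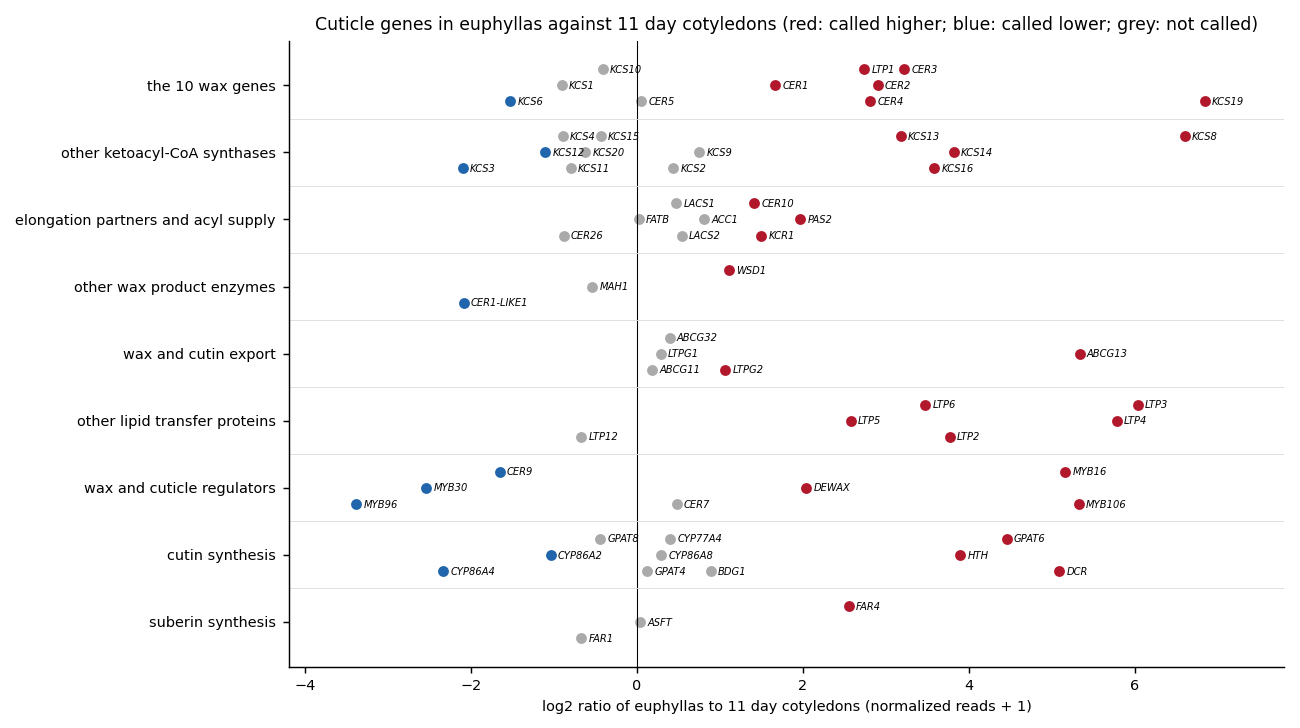
The log2 ratio of euphyllas to 11 day cotyledons of normalized reads plus 1 (horizontal axis) of the 10 wax genes and of the other cuticle genes with enough reads, by list, in red where called higher, blue where called lower and grey where not called. Genes at 0 reads in one library, such as KCS8 and ABCG13, are drawn at the value the added 1 gives. The lipid transfer proteins lie to the right apart from LTP12, and the regulators lie on both sides.

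Patterns were compared as the root mean square difference of log2(normalized reads + 1) over the 5 libraries after each gene was centred on its own mean. Among the members, CER5 and KCS1 (0.39) and CER2 and CER3 (0.40) were nearest to each other, and KCS6 and KCS19 (3.31) were farthest apart. Of all unigenes with at least 200 reads, the nearest to CER2 was AT4G20430, a subtilase (0.04), with 22.6, 43.7, 63.0, 27.9 and 218.4 normalized reads. The nearest to KCS10 was ATPK19, a protein kinase (0.08), to CER5 the kinase WAKL21 (0.09), and to KCS1 the GATA factor BME3-ZF (0.12). CER1 was nearest to the galactosyltransferase AT1G27120 (0.12), LTP1 to the glycosyltransferase UGT76C3 (0.12), KCS6 to the kinase AT5G47070 (0.16), CER3 to AT3G62630, of unknown function (0.22), and CER4 to the sulfate transporter AST56 (0.38). KCS19 had no neighbour as near as these: its nearest were AT3G58650, of unknown function (0.54), and SYP111, the syntaxin of the dividing cell plate, known as KNOLLE (0.64), which had 3.54, 53.9, 68.3, 7.51 and 336.3 normalized reads. The measure is not scaled, so it tends to be larger for genes with a wide range and few reads. KCS19 had the widest range of the members (129.9-fold), with 18 reads in seeds and 7 in 11 day cotyledons.

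**Figure D5:**
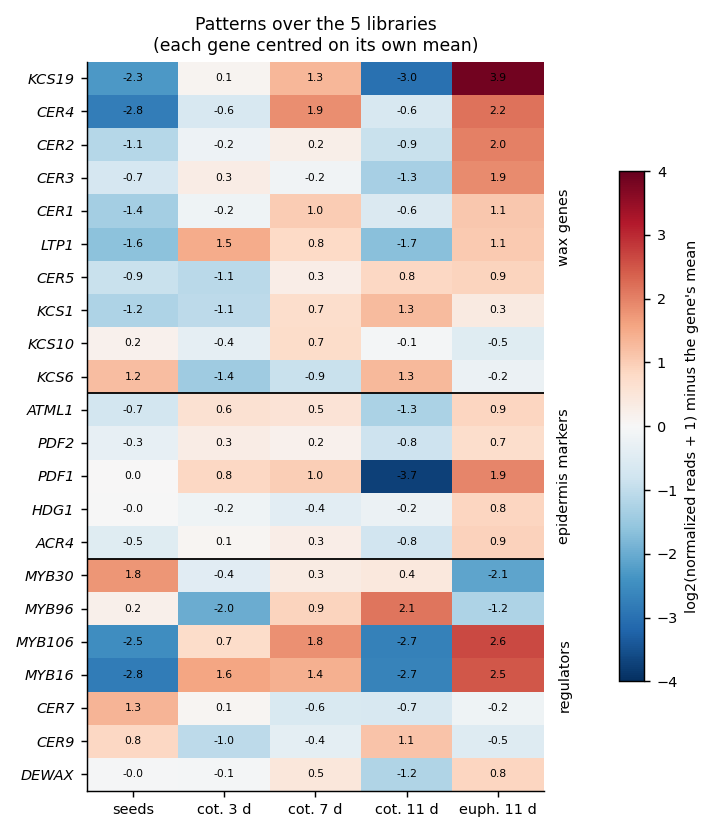
Each cell gives log2(normalized reads + 1) minus the mean of the gene over the 5 libraries (colour scale in log2 units), for the 10 wax genes, the 5 epidermis markers and 7 regulators, with the libraries in columns. The column of 11 day cotyledons is blue for KCS19, CER1 to CER4 and LTP1 and for the epidermis markers, palest for HDG1 (-0.2). It is red for CER5, KCS1, KCS6, MYB30, MYB96 and CER9, while the other regulators, MYB106, MYB16, DEWAX and CER7, are blue.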

How the data were processed

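The authors trimmed paired MiSeq reads of poly-A RNA, assembled all libraries together with Velvet and Oases, matched the unigenes to *Arabidopsis* or nr, mapped the reads with Bowtie and scaled them with DESeq, in versions that the sources used here do not give. The deposited counts are raw reads per unigene, and the deposited normalized signal is the count divided by the DESeq size factor. Lengths, positions (of the *Arabidopsis* locus, build not named) and symbols are those of the deposited annotation. The 20 RPKM columns and the authors' fold changes and p-values in the 10 pair tables were not used.

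The members and lists were chosen with earlier results of these data known. From the counts, ratios with exact conditional binomial (Clopper-Pearson) 95% intervals were computed. These intervals are too narrow because PCR reads are not independent molecules, and the mates of a read pair may have been counted separately. With 1 library per tissue no test was possible. A count of 0 was set to a floor of 3 reads for ratios, and log2 values used a pseudocount of 1. Named genes are the 10 members, the 3 called genes with most reads of each list and comparison, and the 3 nearest patterns of each member, of which the text gives the nearest, and for KCS19 also the next, SYP111. ABCG11, the cell type markers, and LACS2, SGS3, RDR1 and ACLA-1 of the Gene Ontology list below were named outside this rule or after their values were seen. KCS8 was named by the rule for the step from 7 to 11 days, but is described for another comparison. Alternatives were total reads, TMM factors (edgeR 4.0.16 in R 4.3.3), a fold limit of 4, a 99.9% interval, a minimum of 100 reads and a pseudocount of 10. Python 3.11.15 with numpy 2.4.6, pandas 2.3.3, scipy 1.17.1 and matplotlib 3.10.9 was used, and the calls were tested on simulated data.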

Additional observations from a re-analysis of the deposited data

How the results depend on the processing

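Most counts of called wax genes stayed within 1.5 times of the values given, in 43 of 48 alternatives. From 3 to 7 days the 6 genes called higher became 2 with total mapped reads and 1 with a fold limit of 4, and the 0 called lower became 1 (LTP1) with total mapped reads. From seeds to 3 days the 4 genes called higher became 3 with total mapped reads, without CER1. With TMM factors they became 6, with CER2 and CER3 added. A fold limit of 4 left 3 of 6 genes called lower from 7 to 11 days, and 0 of 1 from 11 day cotyledons to euphyllas. Of the log2 ratios, 23 of 40 moved beyond their counting interval with total mapped reads, 1 with TMM factors and 2 with a pseudocount of 10, and the sign changed for no called gene. Over all unigenes, total mapped reads gave 3053 called higher and 4722 lower, 2721 and 4494, 3070 and 3126, and 5256 and 2971 in the 4 comparisons in turn, against 3641 and 3700, 3795 and 2515, 3181 and 3010, and 3422 and 4290 with the size factors. No paired analysis was possible because each tissue has 1 library and no result comes from a test, and for the same reason no replicate could be left out. Depth limits KCS19 most, with 7 reads in 11 day cotyledons.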

Other observations

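The deposited annotation offers another view of the pathway, a list taken after the values were seen. It assigns the wax biosynthesis term of the Gene Ontology to 17 unigenes, 7 of them among the 10 wax genes. The other 10 are CER7 to CER10 (CER8 being LACS1), LACS2, WSD1, MAH1, the ATP-citrate lyase subunit ACLA-1, and the RNA silencing genes SGS3 and RDR1. Of these 10, 1 was called higher and 4 lower from seeds to 3 day cotyledons, 3 higher and 0 lower in both steps of the older cotyledons, and 4 higher and 1 lower from 11 day cotyledons to euphyllas, with median log2 ratios of -0.64, 0.03, -0.18 and 0.51. Of all unigenes, 22.1% and 22.5% were called higher and lower from seeds to 3 days, and 23.3% and 15.4% from 3 to 7 days. The shares were 19.4% and 18.4% from 7 to 11 days, and 21.0% and 26.3% to euphyllas. None of the 10 was called lower between 7 and 11 days, but with so few genes the counts are a description only. SGS3 had 1913 normalized reads in seeds, 1318, 1377 and 921.0 along the cotyledon series, and 2250 in euphyllas. RDR1 had 263.2, 75.3, 201.7, 249.8 and 279.6 in the same order, lowest at 3 days. ACLA-1, which supplies cytosolic acetyl-CoA, had 601.5, 897.1, 731.1, 469.6 and 986.8, highest in euphyllas.

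Outside the epidermis, other marker lists moved between the 11 day organs as well. The phloem and vascular markers SUC2, AHA3 and APL were called lower in euphyllas than in 11 day cotyledons and ATHB8 higher, with SUC2, the phloem sucrose transporter, at 4121 and 116.7 normalized reads. None of the 4 mesophyll markers was called in either direction between these libraries. Of the 5 guard cell and stomatal lineage markers, 3 were called higher in euphyllas than in 11 day cotyledons and 1 lower. Of all unigenes, 21.0% and 26.3% were called higher and lower between these libraries. TMM was 10.9-fold (8.18 to 14.9) and MUTE 4.19-fold (1.98 to 9.92) higher, SPCH had 2 and 158 reads (ratio 85.1, interval 23.2 to 709), and KAT1, a guard cell potassium channel, was 5.57-fold (3.72 to 8.63) lower. TMM and SPCH were also called lower from 7 to 11 days, as were CER1 to CER4, KCS19 and LTP1, and the part of this list in the wax gene values was not tested. The trichome marker TRY, the one of 3 with a unigene, was 10.9-fold (3.99 to 41.7) lower in euphyllas, with 47 reads in 11 day cotyledons and 4 in euphyllas.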
